A study of Mus musculus with 25 samples.

Results

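The comparison described here sets mouse 2-cell embryos labelled sIVF against 2-cell embryos labelled WT. The members are all gene loci whose mean reached 1 FPKM (fragments per kilobase of transcript, scaled to the mapped fragments of the library) over the 2-cell libraries, which left 8246 of 24708 loci, or 8174 gene symbols. Each group had 2 libraries of embryos of the BDF1 strain at embryonic day 1.5, and these 4 libraries belong to a series of 25 samples on in vitro fertilisation (IVF), Fzr1 and fetal growth. The labels give WT, sIVF and IVF as the genotype, name no other allele or agent for these groups, and do not say what sIVF stands for. The 2-cell embryos labelled IVF (2 libraries, same strain and age) shared the fit and their values are given beside some genes. The labels do not say that replicates were separate cultures or how many embryos entered a library, so p-values measure only the spread between these libraries, which may be technical.

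The mouse 2-cell embryo is the stage at which control of development passes from the egg to the embryo. Transcripts stored by the growing oocyte are degraded in waves, while the embryonic genome is switched on, first in a minor wave and then in a major wave. A short-lived set of genes, among them the Zscan4, Tdpoz, Usp17l and Obox families, is transcribed mostly at this stage. An expression table of 2-cell embryos therefore holds both remnants of the oocyte's store and the first embryonic products, and in such bulk samples fewer cells of a type and less RNA per cell cannot be told apart.

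From the width of the deposited confidence intervals, each of the 4 libraries held an estimated 4742698 to 5432820 fragments, with 10085 to 10559 loci above 0. Counting error alone (2 SD) came to 30.1% to 32.6% of a value at 1 FPKM and to 10.8% to 12.6% at 10 FPKM. Markers of the 2-cell stage were present, with a summed level of 434 to 643 FPKM over 11 markers, 297 to 473 FPKM of which was Obox6, and the 10 maternal markers summed to 5492 to 6155 FPKM. All 8 sperm markers were listed at 0 in WT and sIVF libraries, the 6 oviduct markers summed to at most 0.0343 FPKM, and 11 of 16 cumulus and granulosa markers were listed at 0, with a sum of 1.26 to 5.67 FPKM. Longer lists held more in these libraries. A list of 16 sperm and spermatid genes summed to 7.40 to 20.9 FPKM, with Ldhc at 17.6 FPKM in sIVF replicate 2. A list of 11 oviduct genes summed to 85.7 to 107 FPKM. The 6 blood markers summed to between 2.67e-05 and 4.95 FPKM, nearly all of it Hba-a1. The gene named in the series title, Fzr1, an activator of the anaphase-promoting complex, had 0.117 and 0.233 FPKM in WT libraries. It had 0.239 and 2.00 FPKM in sIVF libraries, against 7.69 and 10.1 in the libraries labelled IVF. The WT and sIVF values were low, and those of the sIVF replicates lay far apart.

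sIVF and WT libraries differed from each other about as much as replicates of 1 group did. Across the 8246 loci, Pearson's r of log2(FPKM + 1), a description across genes and not a test, was 0.861 between the WT libraries, 0.872 between the sIVF libraries and 0.843 to 0.881 between a WT and an sIVF library. Between replicates, 2425 loci (29.4%) were at least 2-fold apart in WT and 2316 (28.1%) in sIVF, and between groups 2198 to 2681 loci were. Among the 588 loci whose mean reached 100 FPKM, where counting error is smallest, 6 loci (1.02%) were 2-fold apart within either group. WT replicate 1 differed 2-fold from the sIVF libraries at 9 and 6 of these loci, WT replicate 2 at 24 and 18. The same 588 loci gave 52 to 112 loci between a WT and an IVF library. Among the 4 WT and sIVF libraries, WT replicate 2 was thus farthest from those of the other group. Without it, 296 of all loci were higher and 208 lower in sIVF at an unadjusted limma p under 0.05, with a median log2 difference of 0.0.

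**Figure D1:**
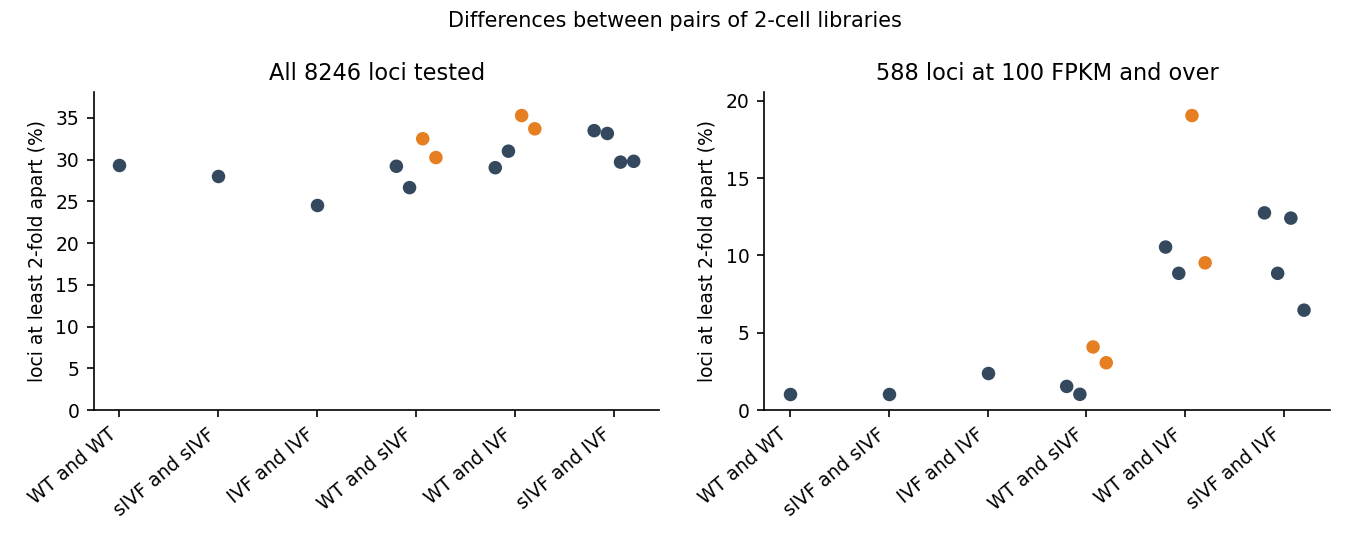
Share of loci at least 2-fold apart on the log2(FPKM + 1) scale in every pair of 2-cell libraries, as a percentage of all 8246 loci tested (left) and of the 588 loci at 100 FPKM and over (right). Each point is 1 pair of libraries and orange points are pairs between groups that contain WT replicate 2; at high levels the WT and sIVF pairs lie between 1.02% and 4.08%.

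No locus passed a Benjamini-Hochberg adjusted p under 0.05 in limma's test of sIVF against WT (0 of 8246 loci, 0.0%). The smallest adjusted p was 0.258, for Hesx1, and the next, 0.466, was shared by 59 loci. Without adjustment, 585 loci (7.09%) had a limma p under 0.05, of which 380 (4.61% of all loci) were higher in sIVF and 205 (2.49%) lower. The share of these loci that were higher, 65.0%, depended on scaling: it was 55.0% after quantile normalization (318 higher and 260 lower) and 53.2% after each library's trend with transcript length was removed (304 and 267). It was also 51.7% without sIVF replicate 1 and 54.0% without sIVF replicate 2. Values of the groups did not overlap at 1696 loci with sIVF higher (20.6%) and at 1265 with sIVF lower (15.3%). Of these, 599 (7.26% of all loci) were at least 2-fold higher and 473 (5.74%) at least 2-fold lower. With 2 libraries against 2, an exact permutation test of 1 gene cannot give a p below 0.333, so single genes are described by their values and by limma's adjusted p over all loci. Genes given as examples had an unadjusted p under 0.05 unless another word stands beside them.

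Most log2 differences were small. The median over all loci was 0.06, 54.0% were above 0, and the range from the 5th to the 95th percentile ran from -1.32 to 1.44. How large a difference could have been seen depended on level: the median half-width of a locus's 95% confidence interval was 1.81 (log2) at 1 to 5 FPKM, 1.25 at 5 to 20, 0.80 at 20 to 100, and 0.49 at 100 FPKM and over. In that highest band 62 loci were higher and 11 lower at p under 0.05 (12.4% together), but the count of higher loci was 32 without WT replicate 2, 27 without sIVF replicate 1, and 38 against 38 lower after quantile normalization. Without an intensity trend in the variance it was 4 against 1. Only 0.850% of these loci had a difference of 2-fold or more.

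**Figure D2:**
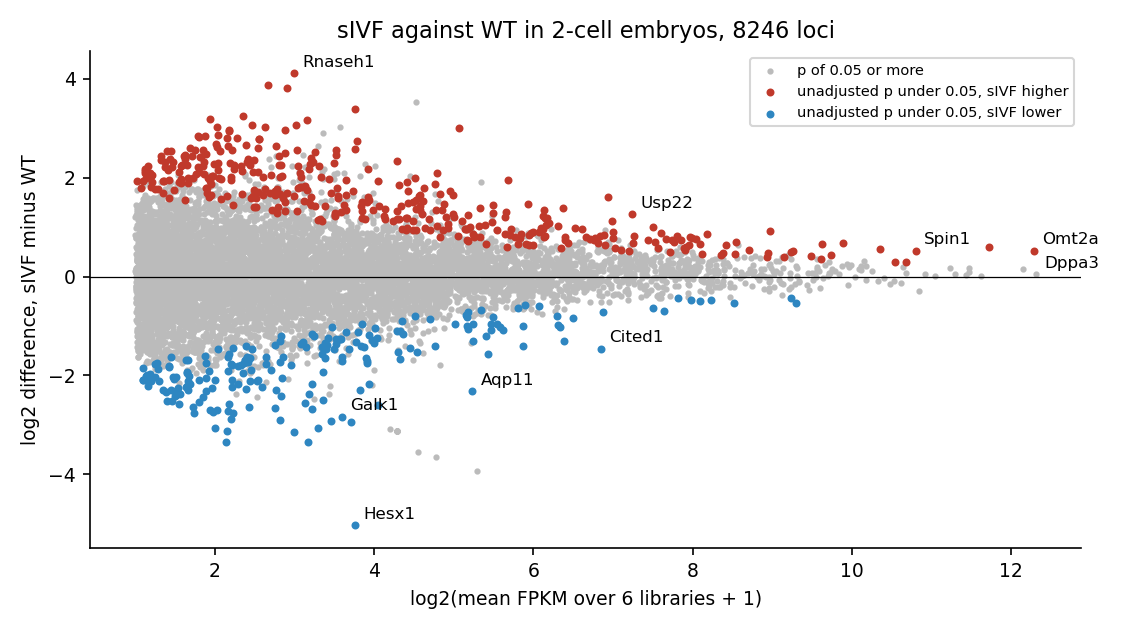
Log2 difference (sIVF minus WT, on the log2(FPKM + 1) scale) of each of the 8246 loci against its mean level over 6 libraries. Red and blue points are the 380 higher and 205 lower loci with an unadjusted limma p under 0.05; none passed adjustment, and the spread narrows from low to high levels.

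The 10 most abundant loci, leaving out small RNAs, predicted genes and clone-based names, were mainly maternal and housekeeping genes. Of them, 2, Omt2a and Omt2b, had an unadjusted p under 0.05, both higher in sIVF. Dppa3, a maternal factor that protects the zygote's genome from demethylation, had 5400 and 5611 FPKM in WT and 6020 and 5355 in sIVF. Dppa5a, a KH-domain gene of germ and pluripotent cells, had 4598 and 4170 FPKM in WT and 4872 and 4929 in sIVF. Ranges of the groups overlapped for Dppa3 and lay side by side for Dppa5a. Calm2 (calmodulin) stood at 2958 and 2921 against 3369 and 2943 FPKM, Cbx3 (a heterochromatin protein) at 2575 and 3272 against 2988 and 2989, and the ribosomal gene Rpl41 at 2829 and 2594 against 3027 and 2440. For Dppa3 the 95% interval of the log2 difference ran from -0.19 to 0.28, and for Rpl41 from -0.29 to 0.30. Wtap, a subunit of the RNA methylation writer, was the one of the 10 most abundant loci with a lower value in both sIVF libraries, at 2171 and 2485 against 1728 and 2103 FPKM (unadjusted p above 0.05, adjusted p = 0.749).

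Among the 34 lists with at least 20 members tested, genes of the oocyte had the highest median difference. The list of 63 symbols, which holds zona proteins, growth factors, meiotic regulators and oocyte-specific gene families, had 55 members tested. At p under 0.05, 14 were higher in sIVF (25.5%, against 4.61% of all loci) and 1 was lower. Groups did not overlap at 27 members with sIVF higher (49.1%, against 20.6% of all loci) and at 5 with sIVF lower. In all, 45 of 55 members had a log2 difference above 0, and their median was 0.58 against 0.06 for all loci tested. The summed level of the list was 15362 and 16725 FPKM in WT, 21804 and 20514 in sIVF, and 14124 and 15453 in IVF libraries. Both sIVF sums were thus above all 4 others. A few very abundant members made up a large part of these sums. Omt2a alone had 4254 and 4896 FPKM in WT and 6812 and 6310 in sIVF, and Omt2b 2532 and 3017 against 4185 and 4135. No member passed adjustment, and the list was chosen with earlier results of these data known.

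How firm the oocyte count is differed between its parts. The median stayed between 0.44 and 0.62 under 18 alternative settings, with the lower end after removal of the length trend. The number of members with p under 0.05 and sIVF higher was less steady, at 8 without WT replicate 2, 6 without sIVF replicate 1, 6 without sIVF replicate 2, 13 without WT replicate 1 and 4 without an intensity trend. Many members belong to families of like copies (Tcl1b, Fbxw, Oog and Omt2, Oas1, Nlrp and Obox), whose reads the authors' quantification may have split in ways not given in the sources used here, so single family members are uncertain. The 38 members in such families had a median of 0.58, with 10 higher and 1 lower at p under 0.05. The 17 members outside them had a median of 0.53, with 4 higher and 0 lower. Of all loci, 4.61% were higher and 2.49% lower at this threshold.

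Among secreted and surface proteins of the oocyte, Oosp1, an oocyte-secreted protein gene on chromosome 19, stood at 51.3 and 37.2 FPKM in WT and 127 and 84.9 in sIVF. Both sIVF values were above both WT values, with a log2 difference of 1.23 (SE 0.30, adjusted p = 0.466). Gdf9, the growth factor by which the oocyte controls its cumulus cells, had 7.02 and 1.16 FPKM in WT and 15.9 and 8.79 in sIVF (log2 difference 1.63, SE 0.66, adjusted p = 0.674). Its partner Bmp15 overlapped between groups, at 20.3 and 10.3 against 20.1 and 26.8 FPKM. The zona pellucida gene Zp3 had 36.9 and 40.5 FPKM in WT and 46.7 and 55.5 in sIVF, a gap within the error (unadjusted p above 0.05, adjusted p = 0.857).

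Meiotic and cytoplasmic regulators included one of the most abundant members. Spin1, a spindle-associated chromatin reader abundant in the egg, had 1402 and 1688 FPKM in WT libraries, against 2208 and 2222 in sIVF libraries (log2 difference 0.53, SE 0.12, adjusted p = 0.466). The IVF libraries, at 1558 and 1627 FPKM, lay within the WT range. Wee2, the oocyte kinase that restrains Cdk1 during meiotic arrest, had 7.29 and 12.9 FPKM in WT and 21.5 and 33.3 in sIVF (log2 difference 1.37, SE 0.44, adjusted p = 0.548). Here too the IVF values, 11.6 and 12.4 FPKM, fell within the WT range. Not every meiotic gene shared this order: Dazl, an RNA-binding protein of germ cells, had 7.54 and 8.69 FPKM in WT against 4.80 and 7.70 in sIVF, an overlap. H1foo, the oocyte linker histone, was lower in both sIVF libraries, at 5.91 and 1.64 against 13.7 and 6.23 FPKM (unadjusted p above 0.05, adjusted p = 0.74).

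Of the members in oocyte gene families, 32 of 38 had a log2 difference above 0, against 13 of 17 outside them. Some families held members of either direction. Omt2a and Omt2b, neighbouring oocyte-enriched genes on chromosome 9, were the most abundant members after Dppa3. Omt2a had 4254 and 4896 FPKM in WT and 6812 and 6310 in sIVF (log2 difference 0.52, SE 0.13, adjusted p = 0.466), with IVF at 3400 and 4264. Omt2b had 2532 and 3017 FPKM in WT and 4185 and 4135 in sIVF (0.59, SE 0.14, adjusted p = 0.466), with IVF at 2872 and 3615. For both genes the sIVF libraries were the highest of the 6. Tcl1b2, of the Tcl1 cluster on chromosome 12, gave the smallest p of the list (adjusted p = 0.466), at 10.9 and 15.7 FPKM in WT and 49.0 and 43.1 in sIVF. Its relatives Tcl1b5 (9.19 and 5.42 against 15.5 and 23.2 FPKM, adjusted p = 0.691) and Tcl1b1 (46.4 and 68.7 against 83.9 and 91.1 FPKM, unadjusted p above 0.05, adjusted p = 0.759) had the same order, while Tcl1b3 overlapped.

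Oog3, a leucine-rich repeat gene of the oocyte, had 460 and 317 FPKM in WT and 735 and 720 in sIVF (log2 difference 0.93, SE 0.27, adjusted p = 0.519). Oog1 and Oog2 had the opposite order, Oog1 at 60.3 and 57.9 FPKM in WT and 51.8 and 45.7 in sIVF, with unadjusted p above 0.05 for both. A further locus of Oog1 on chromosome 12, lower in level and so not counted in the list, had 62.2 and 53.1 FPKM in WT and 37.2 and 28.2 in sIVF (adjusted p = 0.646). The F-box genes Fbxw21 (9.998 and 5.43 against 20.8 and 25.0 FPKM, adjusted p = 0.519), Fbxw15 (adjusted p = 0.639) and Fbxw14 (adjusted p = 0.668) were higher in both sIVF libraries. Of the homeobox Obox genes, Obox5 was higher (55.4 and 43.9 against 65.9 and 83.1 FPKM, unadjusted p above 0.05, adjusted p = 0.746) and Obox2 lower (37.8 and 21.9 against 17.3 and 8.87 FPKM, unadjusted p above 0.05, adjusted p = 0.735). Oas1h, of the oocyte-expressed Oas1 cluster, was the single member below WT at p under 0.05, at 4.78 and 3.31 against 0.226 and 0 FPKM (adjusted p = 0.552).

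**Figure D3:**
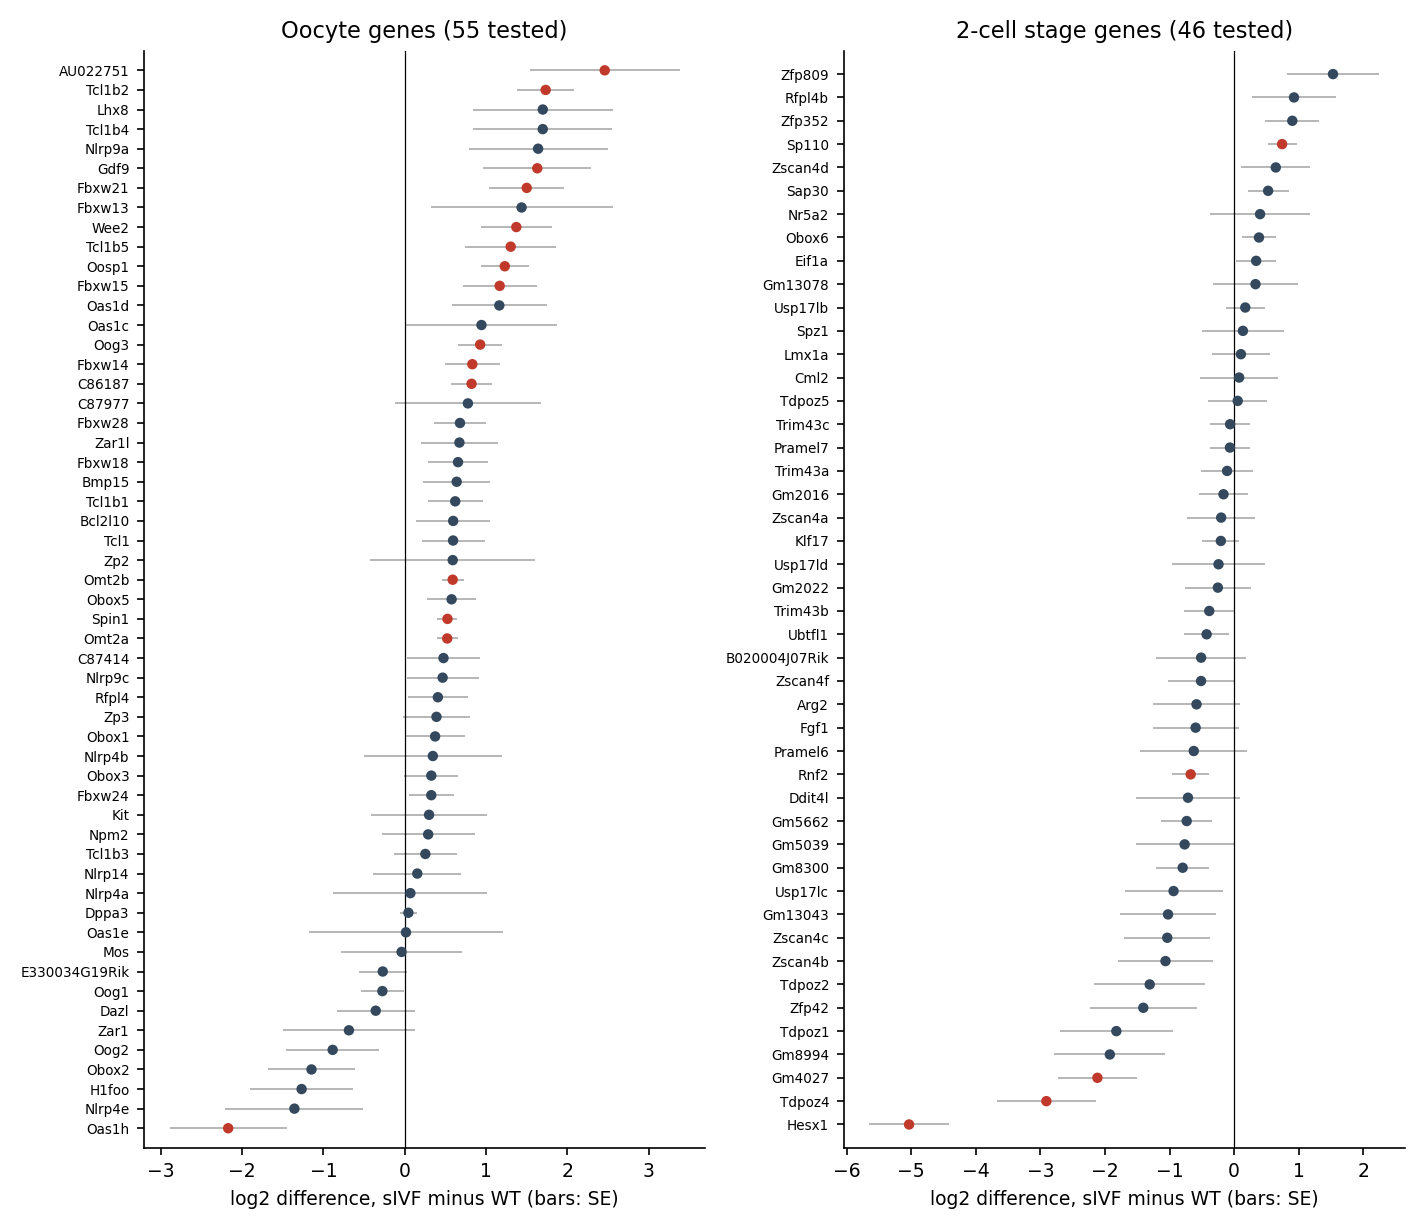
Log2 difference (sIVF minus WT) of every tested member of the oocyte list (left, 55 members) and of the list of 2-cell stage genes (right, 46 members); bars are the standard error of the limma fit and red points have an unadjusted p under 0.05. Most oocyte genes lie above 0 (45 of 55) and most 2-cell stage genes below it (31 of 46).

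In the fit as reported, the other maternal lists had medians near that of all loci. Of 51 genes of maternal mRNA storage and clearance (deadenylases, decapping and poly(A)-tail regulators), 0 had p under 0.05 in either direction, and the median was 0.01. The member of smallest p was Papd4, a cytoplasmic poly(A) polymerase, at 15.1 and 15.2 FPKM in WT and 7.19 and 7.49 in sIVF (unadjusted p above 0.05, adjusted p = 0.735), with 6.51 and 4.84 in IVF. Of the 9 genes of the subcortical maternal complex, a protein complex under the egg membrane that early cleavage needs, only Zbed3 had p under 0.05, at 184 and 198 against 304 and 276 FPKM (adjusted p = 0.691). The median of that list was 0.07, near that of all loci.

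Genes of the first wave of embryonic transcription lay, as a list, on the other side of the background. Of 52 symbols in the tables, 46 were tested, and 31 of them had a log2 difference below 0, with a median of -0.32. At p under 0.05, 4 were lower (8.70%, against 2.49% of all loci) and 1 was higher (2.17%, against 4.61%). Groups did not overlap at 15 members with sIVF lower (32.6%, against 15.3% of all loci) and at 7 with sIVF higher. The summed level of the list did not separate the groups, at 1468 and 1150 FPKM in WT and 1332 and 1402 in sIVF. Without Hesx1, which was put on the list with its values known, the median was -0.25. WT replicate 1 set much of the size of the whole list's median (Hesx1 included): without it that median was -0.15, against 0.10 for all loci. Of the list's members, 20 then lay above 0 and 26 below. Without WT replicate 2 the whole list's median was -0.42, against 0.0 for all loci.

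Hesx1, a homeobox repressor known from the forebrain and pituitary and transcribed briefly in early embryos, had the smallest p of all loci (adjusted p = 0.258 in limma, while the smallest adjusted p of any locus ran from 0.112 to 0.839 over the alternatives). Its locus is chr14:27813548-27815511 in mm9. It stood at 30.2 and 33.3 FPKM in both WT libraries and was listed at 0 in both sIVF libraries, with 8.89 and 2.79 FPKM in IVF. The groups were therefore fully apart, with IVF between them. Of all 24708 loci, 15 in WT and 3 in sIVF were listed at 0 in 1 library and above 20 FPKM in its replicate. Whether the listed 0 of Hesx1 was a failed estimate was not tested.

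The Tdpoz genes, which encode TRAF- and BTB-domain proteins of the 2-cell stage, did not all lie on 1 side. Tdpoz4 had 7.60 and 11.5 FPKM in WT and 0 and 0.916 in sIVF (log2 difference -2.91, SE 0.77, adjusted p = 0.508), and 2.83 and 13.4 in IVF. Tdpoz1 had 7.37 and 8.79 FPKM in WT and 0.199 and 4.45 in sIVF (unadjusted p above 0.05, adjusted p = 0.739), whereas Tdpoz5 overlapped at 16.1 and 8.84 against 11.7 and 13.3. The Eif1a-like genes Gm4027 (9.06 and 5.07 against 0.467 and 1.21 FPKM, adjusted p = 0.508), Gm8300 (20.8 and 35.1 against 12.3 and 18.7) and Gm5662 (31.8 and 30.9 against 16.3 and 20.8) were also lower in both sIVF libraries, the last 2 with an unadjusted p above 0.05. Rnf2, the ubiquitin ligase of Polycomb complex 1, stood at 46.6 and 59.0 FPKM in WT and 34.2 and 30.8 in sIVF (adjusted p = 0.691). As in the oocyte list, reads of the near-identical Tdpoz and Eif1a-like copies may have been split between loci.

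The Zscan4 genes, telomere regulators that mark the 2-cell state, went both ways. Zscan4c had 13.4 and 6.46 FPKM in WT and 2.31 and 6.75 in sIVF, and Zscan4d 15.3 and 7.99 against 15.6 and 20.7. Neither had an unadjusted p under 0.05. The most abundant stage marker, Obox6, was higher in both sIVF libraries at 400 and 297 against 429 and 473 FPKM (unadjusted p above 0.05, adjusted p = 0.791), as was Zfp352, a retrotransposed zinc-finger gene, at 32.8 and 15.9 against 36.3 and 52.4 (unadjusted p above 0.05, adjusted p = 0.735). Sp110, a nuclear body protein, was the 1 member higher at p under 0.05, with 90.2 and 75.4 FPKM in WT and 129 and 148 in sIVF (log2 difference 0.74, SE 0.22, adjusted p = 0.519). With a filter of 5 FPKM the list's median was -0.14.

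Promoters of both lists are shown because they differ from those of most tested genes in base composition. RefSeq promoters (GRCm38.p6, the 250 bases before each annotated start, 1 per gene) matched 6262 of the 8174 symbols tested, 41 of 55 oocyte genes and 29 of 46 genes of the 2-cell stage. CG dinucleotides numbered 17 per promoter at the median of tested genes and 2 at the median of either list. The TATA motif TATAAA, searched on both strands, lay in 407 of the 6262 promoters (6.5%) and in 13% of all 27025 promoters of the table. It lay in 6 of 41 oocyte promoters (14.6%) and in 9 of 29 promoters of 2-cell stage genes (31.0%). Among genes with p under 0.05 it lay in 23 of 297 promoters (7.74%) of those higher in sIVF and in 17 of 154 (11%) of those lower. A match is a description of the letters and not a site. Below, capitals mark CG and TATAAA. Oog3 (chr4:144162652-144162901, minus strand) has TATAAA close to its start. Omt2a (chr9:78314049-78314298, minus strand), Wee2 (chr6:40442613-40442862, plus strand) and Hesx1 (chr14:27000112-27000361, plus strand) are poor in CG. Aqp11 (chr7:97738248-97738497, minus strand), lower in sIVF, has a CG-rich promoter of the common kind, with 23 CG.
Oog3: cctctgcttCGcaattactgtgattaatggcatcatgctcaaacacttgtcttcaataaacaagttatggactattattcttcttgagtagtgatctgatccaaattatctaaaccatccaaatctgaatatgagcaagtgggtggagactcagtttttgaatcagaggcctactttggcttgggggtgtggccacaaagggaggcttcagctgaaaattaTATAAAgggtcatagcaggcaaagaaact
Omt2a: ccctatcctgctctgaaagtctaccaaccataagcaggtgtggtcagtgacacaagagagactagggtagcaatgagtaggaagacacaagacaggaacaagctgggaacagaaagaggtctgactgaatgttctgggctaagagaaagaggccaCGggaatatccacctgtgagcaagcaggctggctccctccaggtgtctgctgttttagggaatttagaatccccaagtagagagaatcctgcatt
Wee2: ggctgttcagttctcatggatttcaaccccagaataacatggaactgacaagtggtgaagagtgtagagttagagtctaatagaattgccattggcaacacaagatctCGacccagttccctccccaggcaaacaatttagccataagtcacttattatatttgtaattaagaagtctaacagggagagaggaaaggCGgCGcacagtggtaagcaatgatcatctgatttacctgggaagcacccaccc
Hesx1: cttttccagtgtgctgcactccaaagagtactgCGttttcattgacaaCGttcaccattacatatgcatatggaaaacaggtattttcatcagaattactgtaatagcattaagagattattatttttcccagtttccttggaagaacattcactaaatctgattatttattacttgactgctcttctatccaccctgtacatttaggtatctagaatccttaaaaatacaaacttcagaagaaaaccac
Aqp11: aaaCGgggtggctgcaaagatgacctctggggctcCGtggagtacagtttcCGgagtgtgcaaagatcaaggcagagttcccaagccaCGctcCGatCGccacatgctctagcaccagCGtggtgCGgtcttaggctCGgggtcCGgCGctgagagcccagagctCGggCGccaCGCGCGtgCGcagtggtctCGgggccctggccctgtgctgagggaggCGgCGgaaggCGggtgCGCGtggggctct

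Beyond these lists, the single genes that differed most were of mixed function. Aqp11, an intracellular aquaporin at chr7:104874889-104886757 (mm9), had 46.7 and 47.4 FPKM in WT libraries, against 7.24 and 10.3 in sIVF. The IVF libraries, at 63.4 and 44.5 FPKM, were like WT, and the log2 difference of sIVF from WT was -2.31 (SE 0.34, 95% interval -3.10 to -1.53, adjusted p = 0.466 in limma). None of the other 8 tested genes of the aquaporin and ion pump list had p under 0.05. Galk1, galactokinase, the first enzyme of galactose use, had 15.9 and 21.4 FPKM in WT and 1.59 and 1.87 in sIVF (log2 difference -2.84, SE 0.49, adjusted p = 0.466). Its IVF values, 16.3 and 9.52 FPKM, were again nearer to WT. None of the other 10 genes tested of galactose and hexosamine metabolism had p under 0.05. Over 18 alternatives, which refit the same libraries, the log2 difference ran from -2.54 to -2.08 for Aqp11 and from -3.35 to -2.63 for Galk1. Both genes were picked for a small p, so these ranges are no separate support.

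Differences of 2-fold or more at higher levels included regulators of histone ubiquitin and Polycomb. Usp22, the deubiquitinase of the SAGA coactivator complex, had 105 and 90.0 FPKM in WT and 246 and 221 in sIVF (log2 difference 1.26, SE 0.22, adjusted p = 0.466), against 103 and 134 in IVF. Of the other 27 tested members of SAGA and other acetyltransferase genes, none had p under 0.05, and the list's median was 0.07. Pcgf6, a subunit of a variant Polycomb complex 1, had 54.0 and 50.2 FPKM in WT and 123 and 117 in sIVF (1.19, SE 0.24, adjusted p = 0.466), against 38.2 and 37.0 in IVF. Ezh2, the H3K27 methyltransferase of Polycomb complex 2, had 27.3 and 23.9 FPKM in WT and 63.5 and 63.9 in sIVF (1.28, SE 0.27, adjusted p = 0.466), against 43.3 and 43.0 in IVF. For each of these 3 genes the sIVF libraries were the 2 highest of 6.

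The Polycomb and trithorax list as a whole had 4 of 36 members higher at p under 0.05 (11.1%, against 4.61% of all loci) and 1 lower (2.78%, against 2.49%), with a median of 0.21. The lower member was Rnf2 of Polycomb complex 1, at 46.6 and 59.0 FPKM in WT against 34.2 and 30.8 in sIVF (adjusted p = 0.691). The list's higher count was 2 without WT replicate 2 and 2 without sIVF replicate 1. Its other higher members were Kdm5b, an H3K4 demethylase, at 64.0 and 67.3 FPKM in WT against 101 and 95 in sIVF (adjusted p = 0.665), and Rbbp7, a histone chaperone (adjusted p = 0.691). Suz12 and Eed, partners of Ezh2 in Polycomb complex 2, had unadjusted p above 0.05. Suz12 had 87.7 and 88.8 FPKM in WT and 102 and 89.98 in sIVF (adjusted p = 0.943), and Eed 44.6 and 50.8 against 48.2 and 69.8 (adjusted p = 0.853). Histone variants that replace canonical histones outside replication had 3 of 10 members higher (against 4.61% of all loci) and 0 lower. Their median level lay above 100 FPKM, where 62 of 588 loci were higher and 11 lower. H3f3b, which encodes H3.3, stood at 1420 and 1524 FPKM in WT and 1867 and 1722 in sIVF (log2 difference 0.29, SE 0.12, adjusted p = 0.668). H2afv had 261 and 204 against 329 and 293 FPKM (adjusted p = 0.701). The count of higher members of this list was 0 without sIVF replicate 1, 0 without sIVF replicate 2, 1 without either WT library, and 0 after quantile normalization.

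Genes of ribosome production contributed some of the larger p under 0.05 differences at high levels without a shift of their lists. Rrn3, the initiation factor of RNA polymerase I, had 177 and 188 FPKM in WT and 316 and 307 in sIVF (log2 difference 0.77, SE 0.18, adjusted p = 0.466), against 112 and 117 in IVF. Imp3, of the small-subunit processome, had 163 and 172 against 275 and 294 FPKM, and Nhp2, of the H/ACA particle, 703 and 609 against 1110 and 978. Npm1, nucleophosmin, was lower at 770 and 599 against 468 and 539 FPKM (adjusted p = 0.677). The list of RNA polymerase I and ribosome assembly had 3 of 50 members higher (6.0%, against 4.61% of all loci). It had 1 lower (2.0%, against 2.49%) and a median of 0.01. Mphosph6, an RNA exosome cofactor, had 551 and 568 FPKM in WT and 831 and 927 in sIVF (adjusted p = 0.466), with IVF at 943 and 908. Cytosolic ribosomal proteins had 5 of 86 members higher (5.81%, against 4.61% of all loci) and 3 lower (3.49%, against 2.49%) with a median of 0.01. That split turned with the scaling, to 1 higher and 10 lower after quantile normalization (median -0.11) and 1 and 7 with the length trend removed, and it was 0 and 3 without WT replicate 2 and 0 and 2 without sIVF replicate 1. Without an intensity trend it was 0 and 0. The shares of all loci hold for all levels together: of the 588 loci at 100 FPKM and over, 62 were higher and 11 lower. Rpl32 (189 and 135 against 301 and 240 FPKM, adjusted p = 0.519) and Rpl38 (785 and 752 against 529 and 525 FPKM, adjusted p = 0.466) lay at opposite ends.

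On the lower side, Cited1, a transcriptional coregulator encoded on the X chromosome, had 172 and 175 FPKM in WT and 75.5 and 51.8 in sIVF (log2 difference -1.46, SE 0.31, adjusted p = 0.466), against 134 and 76.6 in IVF. Lamp2, a lysosomal membrane protein also encoded on the X chromosome, had 128 and 122 FPKM in WT and 56.0 and 67.1 in sIVF (-1.02, SE 0.24, adjusted p = 0.466). Its IVF values, 57.0 and 47.9 FPKM, were as low as those of sIVF. Lamp1 (21.7 and 18.3 against 11.4 and 4.03 FPKM, adjusted p = 0.598) and the protease gene Ctsl (283 and 278 against 225 and 182 FPKM, adjusted p = 0.638) were lower too. The autophagy and lysosome list had 4 of 36 members lower (11.1%, against 2.49% of all loci) and 1 higher, Atg3, with a median of -0.03, and its count of lower members was 1 without sIVF replicate 2 and 2 without WT replicate 2. Bhmt, which remethylates homocysteine, had 18.7 and 28.7 FPKM in WT and 3.29 and 4.66 in sIVF (adjusted p = 0.466).

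**Figure D4:**
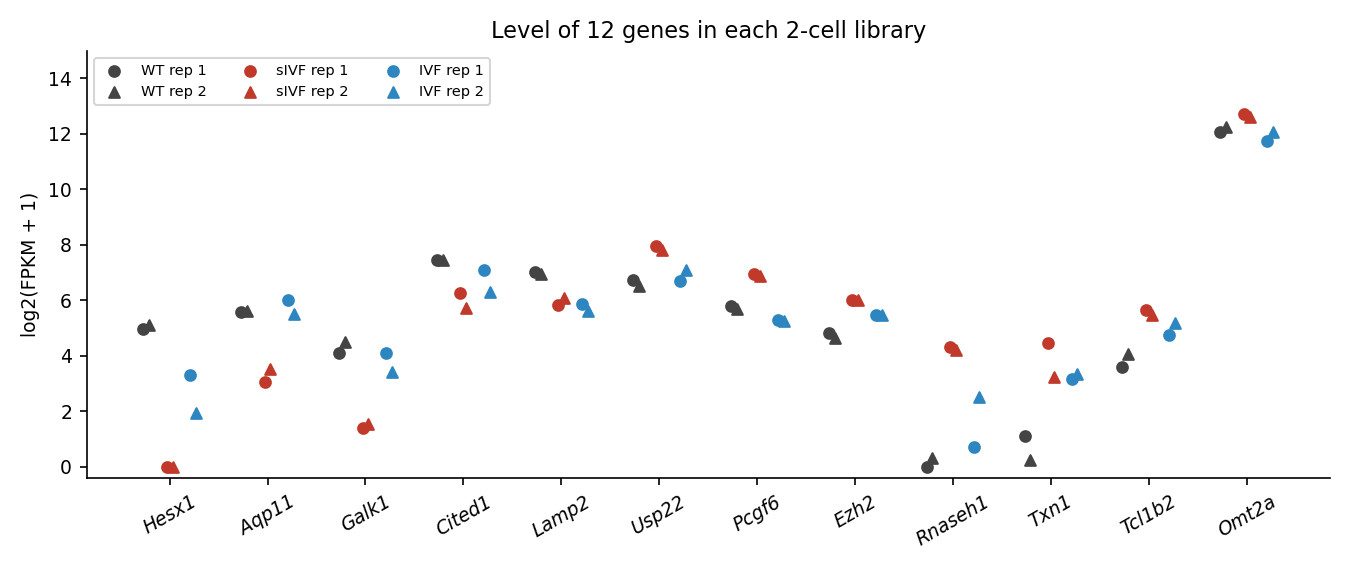
Level, as log2(FPKM + 1), of 12 genes in each of the 6 2-cell libraries; colours are groups and symbols are replicates (rep). In all 12 genes both sIVF points lie on the same side of both WT points, with Hesx1 listed at 0 in both sIVF libraries. All but Omt2a were named for a small p or for groups without overlap, so this separation follows from the choice of genes. Groups did not overlap at 35.9% of all 8246 loci.

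Differences of energy and redox genes were scattered. Etfa, which passes electrons from fatty acid oxidation to the respiratory chain, had 43.7 and 35.6 FPKM in WT and 110 and 93.3 in sIVF (log2 difference 1.34, SE 0.32, adjusted p = 0.466), while its list of fatty acid metabolism had no other member of 26 at p under 0.05 and a median of -0.06. Oxidative phosphorylation had 4 of 82 members higher (4.88%, against 4.61% of all loci) and 2 lower (2.44%, against 2.49%) with a median of 0.05. The split was 3 higher and 5 lower after quantile normalization, 1 and 5 without sIVF replicate 1, and 8 and 3 without WT replicate 1. Cox6b2, a cytochrome oxidase subunit, had 81.9 and 43.9 against 270 and 126 FPKM (adjusted p = 0.481), and Uqcrh, of complex III, 263 and 222 against 141 and 157 (adjusted p = 0.508). Of 15 tricarboxylic acid cycle genes, Cs (citrate synthase) and Me2 were higher and Idh3g lower at p under 0.05. That list's median, 0.59, was -0.41 without WT replicate 2, 0.28 without sIVF replicate 1 and 0.80 without WT replicate 1. Glycolysis and pyruvate genes had a median of 0.32, which was -0.01 without WT replicate 2 and 0.46 without WT replicate 1, with Pdhx alone at p under 0.05. Of the antioxidant genes, Txn1, thioredoxin, had 1.17 and 0.165 FPKM in WT and 20.8 and 8.32 in sIVF (log2 difference 3.16, SE 0.63, adjusted p = 0.466), and Gsto1 0.686 and 0.145 against 6.07 and 16.9 (adjusted p = 0.466). IVF values were 7.99 and 9.07 FPKM for Txn1. Prdx3, a mitochondrial peroxidase, went the other way at 11.1 and 9.73 against 2.21 and 4.96 FPKM (adjusted p = 0.668). The antioxidant list had 4 of 37 members higher (10.8%, against 4.61% of all loci), 1 lower (2.70%, against 2.49%) and a median of 0.07.

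Proteasome genes split by subunit. Psma1 of the core particle had 38.5 and 20.1 FPKM in WT and 66.9 and 75.1 in sIVF (adjusted p = 0.507), and Psmc2 of the regulatory cap 108 and 70.5 against 135 and 167 (adjusted p = 0.553). In contrast Psmc4, which belongs to the same ATPase ring as Psmc2, had 50.2 and 44.9 FPKM in WT and 24.2 and 23.5 in sIVF (adjusted p = 0.508), and Psmd4 102 and 91.5 against 56.1 and 53.9 (adjusted p = 0.519). The list had 5 of 44 members higher (11.4%, against 4.61% of all loci) and 3 lower (6.82%, against 2.49%), with a median of 0.16. Without sIVF replicate 1 it was 2 higher and 4 lower, and without either WT library 3 and 2. Genes of DNA replication had 3 of 53 members higher (5.66%, against 4.61% of all loci), namely Mcm10, Pole2 and Rfc3. They had 3 lower (5.66%, against 2.49%), namely Rfc2, Rfc5 and Rrm2. Rrm2, of ribonucleotide reductase, was the most abundant of these at 90.9 and 82.3 against 53.5 and 61.0 FPKM (adjusted p = 0.674). The anaphase-promoting complex and mitosis list, to which Fzr1 belongs, had 3 of 48 higher and 3 lower at p under 0.05, with a median of 0.04. Each count is 6.25%, against 4.61% of all loci higher and 2.49% lower. Plk1, a mitotic kinase, had 15.9 and 11.3 FPKM in WT and 5.44 and 3.86 in sIVF (adjusted p = 0.665). Cks1b, a Cdk subunit, had 672 and 586 against 870 and 804 (adjusted p = 0.586).

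Stress lists differed in their counts at p under 0.05, where all loci gave 4.61% higher and 2.49% lower. The p53 pathway had 0 of 27 members with p under 0.05 and a median of -0.09, and its member of smallest p was Ei24 (unadjusted p above 0.05, adjusted p = 0.782). Heat shock proteins and chaperones had 0 of 33 higher and 2 lower (6.06%), Hspa2 (28.1 and 36.2 against 17.2 and 12 FPKM, adjusted p = 0.605) and Stip1 (73.2 and 77.7 against 50.02 and 50.4 FPKM, adjusted p = 0.696). The unfolded protein and integrated stress response list had 3 of 30 higher (10%) and 0 lower with a median of 0.04, and 1 higher and 1 lower without sIVF replicate 2. Its member of smallest p, Creld2, an endoplasmic reticulum stress gene, had 61.8 and 59.6 FPKM in WT, 91.5 and 131 in sIVF (adjusted p = 0.508) and 178 and 180 in IVF. DNA damage and repair had 1 of 38 higher and 2 lower, and survival and death genes 1 of 26 higher and 3 lower (11.5%), which became 1 and 0 of 16 with a filter of 5 FPKM. Bad, a proapoptotic gene, had 5.66 and 5.33 FPKM in WT and 0 and 0.0993 in sIVF (adjusted p = 0.508).

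Lists of later development, imprinting and sterol synthesis had at most 1 such member each. Trophectoderm and Hippo genes had 0 of 21 members with p under 0.05, epiblast and pluripotency factors 0 of 21 higher and 1 lower, Trim71, an RNA-binding regulator (15.1 and 13.2 against 5.34 and 4.58 FPKM, adjusted p = 0.598). Of 19 autosomal imprinted genes tested, Mcts2, a retrogene expressed from the paternal allele, was higher at 20.1 and 25.7 against 46.7 and 78.7 FPKM (adjusted p = 0.481), and no other had p under 0.05. In DNA methylation machinery, Zfp57, which keeps imprints methylated, was the 1 of 16 higher, at 10.1 and 14.4 against 42.6 and 24.7 FPKM (adjusted p = 0.519). Sterol synthesis had 0 of 15 with p under 0.05. Among lists of 20 or more members tested, only the oocyte list had a median above 0.40, and only the 2-cell stage list had one below -0.10.

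**Figure D5:**
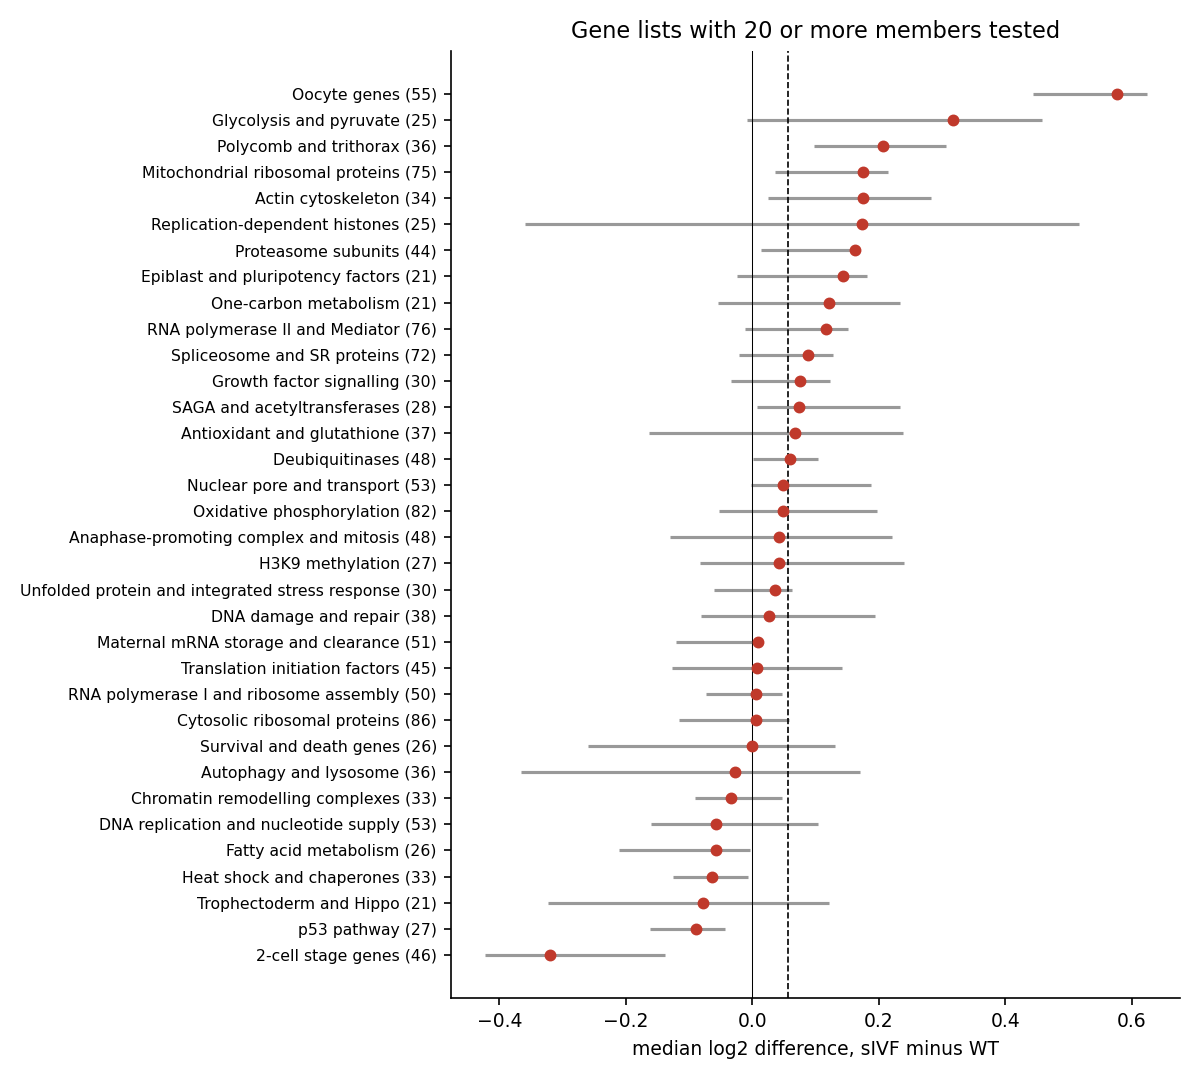
Median log2 difference (sIVF minus WT) of the 34 gene lists with at least 20 members tested, with the number tested in brackets. Red points are the values as reported, grey bars the lowest and highest median over 18 alternative settings, and the dashed line the median of all 8246 loci (0.06).

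Some genes were listed at 0 in a whole group. Between groups, 6 loci were at 0 in both sIVF libraries and above 5 FPKM in both WT libraries, and 7 loci the converse. Within groups, 228 loci in WT and 221 in sIVF were at 0 in 1 library and above 5 FPKM in its replicate, so a listed 0 is common even between replicates and may be a failed estimate. Those at 0 in sIVF included Hesx1, Rgs10, a regulator of G-protein signalling (6.64 and 12.4 FPKM in WT), and Nt5c3, a pyrimidine nucleotidase (6.62 and 8.19). Those at 0 in WT included Zfp637 (19.3 and 8.82 FPKM in sIVF), Fam92a (5.80 and 9.34) and Smkr-ps (8.69 and 5.84). Near that limit, Rnaseh1, which removes RNA from RNA-DNA hybrids, had 0 and 0.231 FPKM in WT and 19 and 17.4 in sIVF (adjusted p = 0.466), and Sin3b, a corepressor scaffold, 0.338 and 1.11 against 14.6 and 11.7 (adjusted p = 0.466). IVF values were 0.620 and 4.70 FPKM for Rnaseh1, nearer to WT, and 12.4 and 2.44 for Sin3b, 1 within the sIVF range and 1 nearer to WT.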

How the data were processed

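For each library the authors deposited FPKM values of gene loci and the interval around each, laid out as Cufflinks gene tracking files, per the file headers. RNA was polyadenylated, and cDNA made on lysates was amplified, fragmented and sequenced as paired ends, per the labels' protocols. Tools listed in the submitters' processing notes, without roles, include Cufflinks 2.2.1, Cuffdiff, Trim Galore 0.6.4 and HISAT2 2.1.0, and the build is mm9. Groups came from the sample titles. Loci whose mean over 6 libraries reached 1 FPKM entered limma 3.58.1 under R 4.3.3 (eBayes with an intensity trend) as log2(FPKM + 1), in 1 fit of the 6 libraries (3 residual degrees of freedom), and p-values were adjusted over all loci by Benjamini-Hochberg. Fold changes on this scale understate those of low genes. Depth was implied from the bounds and covers counting error only. Acsl4 had a failed status in 1 WT library. Steps were tested on simulated data.

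Named genes were the 14 largest differences in each direction without overlap, at p under 0.05 and at least 5 FPKM, the 10 of smallest p, up to 3 members a direction of each of 51 lists, the 10 most abundant loci, Fzr1 and up to 6 loci listed at 0 in a group; the text describes part of these, and other list members were named after their values were seen. Small RNAs, predicted genes and clone-based names were passed over unless they were on a list. The choice of the most abundant loci passed over them in any case. Of such loci, 36 met the conditions set for the largest differences. Lists count 1 locus a symbol, that of highest mean level. Members and lists were chosen with earlier results of these data known. Alternatives covered the pseudocount, filters, scaling, the variance model, the libraries in the fit, a replicate block and leaving out each library. Library weights and removal of the length trend were added after seeing the data. Tables and figures were made with Python 3.11.15, matplotlib 3.10.9 and pandas 2.3.3.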

Additional observations from a re-analysis of the deposited data

How the results depend on the processing

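The count of 0 loci at adjusted p under 0.05 held in each of 18 alternatives, with smallest adjusted p of 0.112 (length trend removed) to 0.839 (without sIVF replicate 1). At unadjusted p under 0.05 the 585 loci became 350 of 4625 with a filter of 5 FPKM, where fewer loci were tested, and 462 to 754 when 1 library was left out. A replicate block gave 0 calls and 623 loci at p under 0.05, 413 of them higher. Deviations of libraries with the same number correlated at -0.0031 (WT and sIVF), 0.0739 (WT and IVF) and -0.0015 (sIVF and IVF), so the numbers were not taken to pair the samples. The choice of genes without overlap fixes their direction when 1 library is left out. Among named genes whose groups overlap, those reversed were Tnfaip6 (-1.03, -2.18 without WT replicate 2 to 0.12 without WT replicate 1), Ldhc (0.77, -0.31 without sIVF replicate 2 to 1.85 without sIVF replicate 1) and Hba-a1 (0.74, -0.54 without sIVF replicate 1 to 2.03 without sIVF replicate 2), all on lists of other cell types. Tnfaip6 and Hba-a1 were low, while Ldhc had 3.17 and 17.6 FPKM in the sIVF libraries. The cause was not tested. With 2 libraries a group, leaving 1 out assumes that the lone library varies like the others. Depth limits loci below 5 FPKM most.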

Other observations

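Chromosome X stood out by direction, a feature chosen after its values were seen. Of 305 loci on it, 19 were lower in sIVF at unadjusted p under 0.05 and 11 higher, where all loci gave 205 lower and 380 higher, with a median log2 difference of -0.09 against 0.06. Without WT replicate 1 the counts were 15 lower and 21 higher with a median of -0.02, where all loci gave 230 lower and 524 higher with a median of 0.10. Cited1 and Lamp2 are among the lower loci.

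The log2 difference tended to fall with transcript length, as implied by the deposited bounds. In 10 equal classes of length, the median was 0.08 to 0.15 in the 5 shorter ones and -0.06 in the longest. The trend was not particular to sIVF: the median of IVF minus WT was 0.19 in the shortest class and 0.01 in the longest. Median implied lengths ran from 1085 to 16821 bases, were not checked against an annotation, and were not separated from level. At p under 0.05, 60 loci were higher and 33 lower in the shortest class, against 5 and 8 in the longest.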
